A study of Mus musculus with 14 samples.

Results

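The genes described here are named as nuclear-encoded subunits of the mitochondrial respiratory chain and of ATP synthase, followed in mouse 2-cell embryos. They were chosen by symbol: the Nduf, Uqcr, Cox4 to Cox8, Atp5 and Sdh subunit genes with Cyc1 and Cycs, leaving out names that hold -ps and the Ndufaf assembly factors. The rule found 93 of the 56923 genes in the count table. By name, 40 belong to complex I, 4 to complex II, 9 to complex III, 21 to complex IV and 18 to complex V, and the remaining gene, Cycs, encodes cytochrome c. The annotation lists 4 of them as processed pseudogenes, Ndufa11b, Ndufb4c and Ndufs6b of complex I and Cox6c2 of complex IV, and 89 as protein-coding. The symbol Atp5o stands for 2 gene identifiers, of which the second had no counts.

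The embryos came from ICR mice, and each library was made from 5 embryos. Early (E2C) and late (L2C) 2-cell embryos were collected 30 and 54 h after hCG. The G&N embryos were cultured from 24 h post-hCG with 5 μM GNE140, an inhibitor of lactate dehydrogenase, 50 μM NMN, a precursor of NAD, and 10 mM lactate. The G&N-L embryos had the same GNE140 and NMN but 0 mM lactate, at both stages. The L2C G&N-L + Lac-CoA embryos were injected as zygotes with 1 mM lactyl-CoA, the donor for histone lactylation, and cultured like the G&N-L embryos. For them 24 h is given as the time of lactate deprivation, and no separate hour of injection is stated. The L2C H3K18R and L2C WT embryos were injected at 14 h with 200 ng/μL histone H3 mRNA, mutated at lysine 18 or wild-type. All carried their own H3 genes, so the mutant histone was added to them and did not replace them. Each of the 7 groups had 2 libraries. The treatment labels of the early 2-cell libraries name fewer agents than the titles, and the count columns write K18A where the titles write H3K18R; groups follow the titles.

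The respiratory chain passes electrons from NADH at complex I and from succinate at complex II to ubiquinone, then through complex III and cytochrome c to oxygen at complex IV. Complexes I, III and IV pump protons, and complex V uses the gradient to make ATP. Complexes I, III, IV and V are built from nuclear and mitochondrially encoded subunits, while all subunits of complex II are nuclear. The oocyte supplies the embryo with its mitochondria and with much of the early mRNA. A minor activation of the embryonic genome starts between the zygote and the early 2-cell stage. The major activation comes at the mid-to-late 2-cell stage. Pyruvate and lactate are the main fuels of the embryo at this time, and lactate enters the chain only after lactate dehydrogenase has made pyruvate and NADH from it. The question asked of these genes is which of them moved between the stages, and which differed when lactate was missing or lysine 18 of H3 was changed.

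Library totals ran from 20350427 to 61275465 counts. At these depths a gene without counts may still have up to 0.049 to 0.147 CPM of the library total, by a limit of 3 counts that covers counting error only. The 93 genes took 0.368% to 0.806% of the counts of a library, and 79 of them had counts in all 14 libraries. Replicates differed by a median of 0.27 to 0.43 on the log2 scale over the 69 members used for this check. The 2 E2C G&N libraries were the most apart, with 14 members differing by over 1 on the log2 scale. Nothing says that the replicates came from separate days or donors, so p-values measure only the spread between these libraries. Markers of the 2-cell embryo summed to 433 to 669 CPM of the library total in early and 1193 to 5791 in late libraries. Markers of cumulus cells summed to 8.33 to 42.01 and those of sperm to 1.87 to 15.9, with Inhba and Tnp1 at 0 in all libraries. Markers of the oocyte and maternal mRNA summed to 7161 to 9606 in early libraries, 5044 to 7968 in late G&N, G&N-L and Lac-CoA libraries and 2399 to 4705 in WT and H3K18R. Levels below are CPM, counts scaled to a fixed library size after normalization by TMM over the 14 libraries. In these bulk libraries, fewer cells of a type and less RNA per cell cannot be told apart.

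Complex IV genes were among the most abundant members. Per kilobase of transcript, the 3 highest means in late libraries were those of Cox6b2 with 829 CPM per kb, Cox8a with 821 and Atp5g1, a gene for the c subunit of the ATP synthase rotor, with 682. The order in early libraries was Ndufa4 with 559, Cox6b2 with 522 and Cox8a with 510 CPM per kb, and these 3 overlapped in their libraries. Among gene pairs for the same subunit, the tissue-restricted isoform was mostly the low one, with an exception at Cox6b. Cox6b2, known as the testis isoform of a subunit that holds the cytochrome oxidase dimer together, lay at 384 to 615 CPM per kb in early and 507 to 1275 in late libraries. The ubiquitous Cox6b1 lay at 81.1 to 136 and 63.3 to 146, below Cox6b2 in each of the 14 libraries. Cox6a2, Cox7a1 and Cox8b, the isoforms of heart and skeletal muscle, differed among themselves. Cox6a2 lay at 9.80 to 18.9 CPM per kb in early and 0.58 to 7.33 in late libraries. Cox7a1 lay at 0 to 1.03 in early and 5.32 to 28.3 in late libraries, and Cox8b had no counts. Their ubiquitous partners Cox6a1, Cox7a2 and Cox8a stayed above 117 CPM per kb in all libraries. Of the isoforms tied to low oxygen, Cox4i2 lay at 0 to 1.08 in early and 0.61 to 16.8 CPM per kb in late libraries, below Cox4i1 in every library, and Ndufa4l2 had no counts in the late libraries. Cox8c, another testis isoform, reached at most 4.60 CPM per kb. These ranges describe the libraries.

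**Figure D1:**
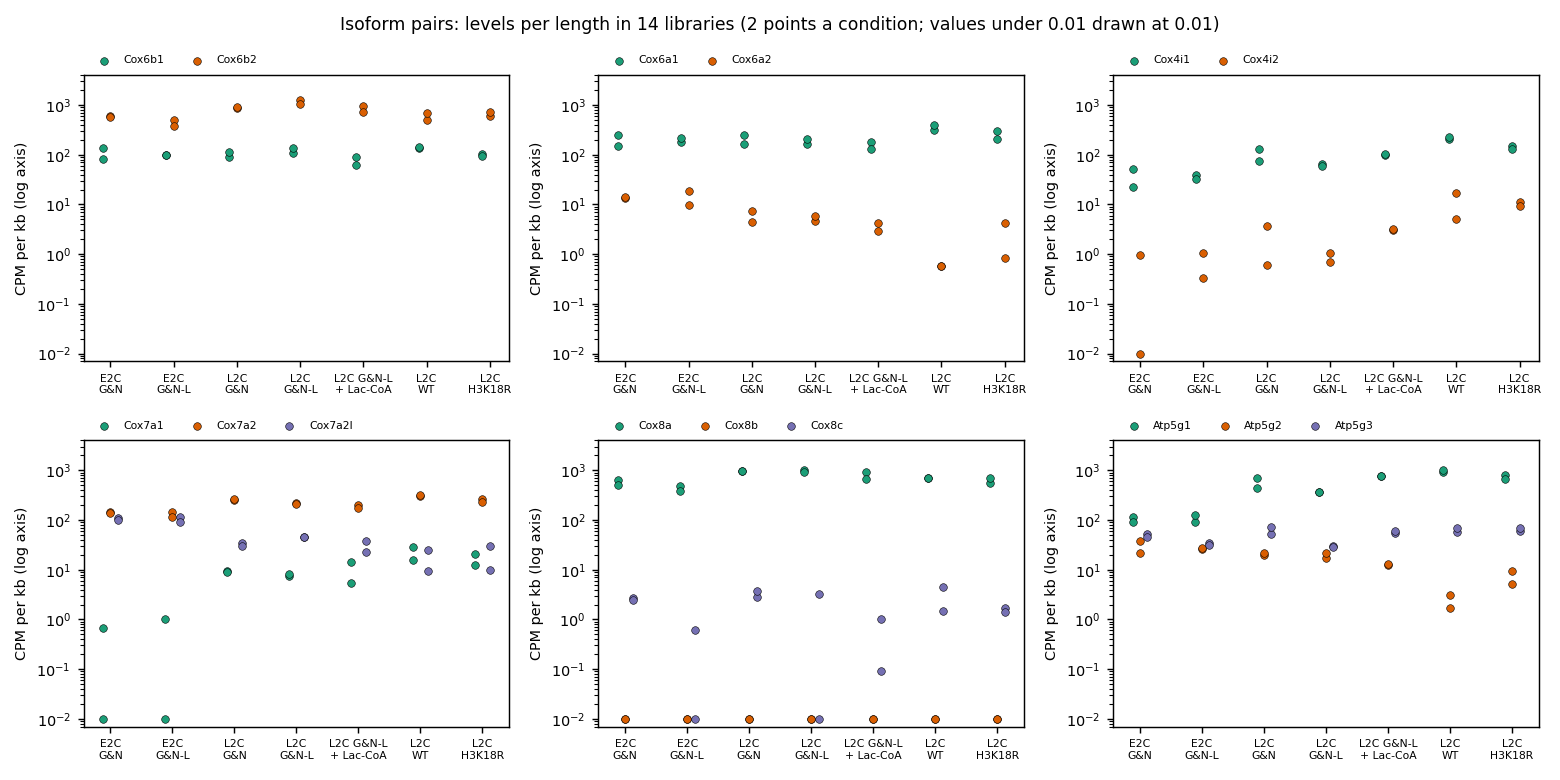
Levels of isoform genes in CPM per kb of transcript on a log axis, with the 2 libraries of each of the 7 conditions as points and values under 0.01 drawn at 0.01. Cox6b2 lies above Cox6b1 in every library, and Atp5g1 moves from 90.7 to 127 in early to 368 to 1018 in late libraries while Atp5g2 lies at 21.5 to 38.3 and 1.73 to 22.2.

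The c ring of ATP synthase has 3 genes that encode the same mature protein, Atp5g1, Atp5g2 and Atp5g3. Atp5g1 lay at 118 and 90.7 CPM per kb in E2C G&N, 436 and 689 in L2C G&N and 917 and 1018 in L2C WT. Atp5g2 lay at 38.3 and 21.5 CPM per kb in E2C G&N, 19.5 and 21.4 in L2C G&N and 1.73 and 3.04 in L2C WT. Atp5g1 was above Atp5g2 in every library, and the late libraries had the wider gaps. Atp5g3 stayed between 28.7 and 73.6 CPM per kb in all 14 libraries. Atp5g1 has 5 other places in the genome that match its transcript at 90% identity or more over at least 200 bases, and Atp5g2 has 3. How the counting treated reads that match several places is not given in the sources used here, so the values of such genes are uncertain. Of the 93 genes, 35 have at least 1 such copy.

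From the early to the late 2-cell stage with lactate present (L2C G&N against E2C G&N), subunits of the same complex moved in opposite directions. Treatment began at 24 h post-hCG for both stages, so stage and length of treatment cannot be told apart, with or without lactate. By edgeR's quasi-likelihood test, with Benjamini-Hochberg adjustment over the whole table and a threshold of 0.05, 9 of 87 genes fell and 10 rose. Of all 19443 genes in the test, 5.47% fell and 8.18% rose. The median log2 fold change was 0.19 for the 87 genes and 0.08 for all genes. By complex, 5 fell and 5 rose in complex I, 1 fell in complex II, 1 fell and 1 rose in complex III, 1 fell and 2 rose in complex IV, and 1 fell and 2 rose in complex V. By the unadjusted criterion given below for late embryos, 18.4% of the 87 members were lower and 25.3% higher. Among the 1143 genes within the interquartile ranges of the members' transcript length and level, 28.3% were lower and 27.1% higher. The members' shares were thus not above those of these genes.

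**Figure D2:**
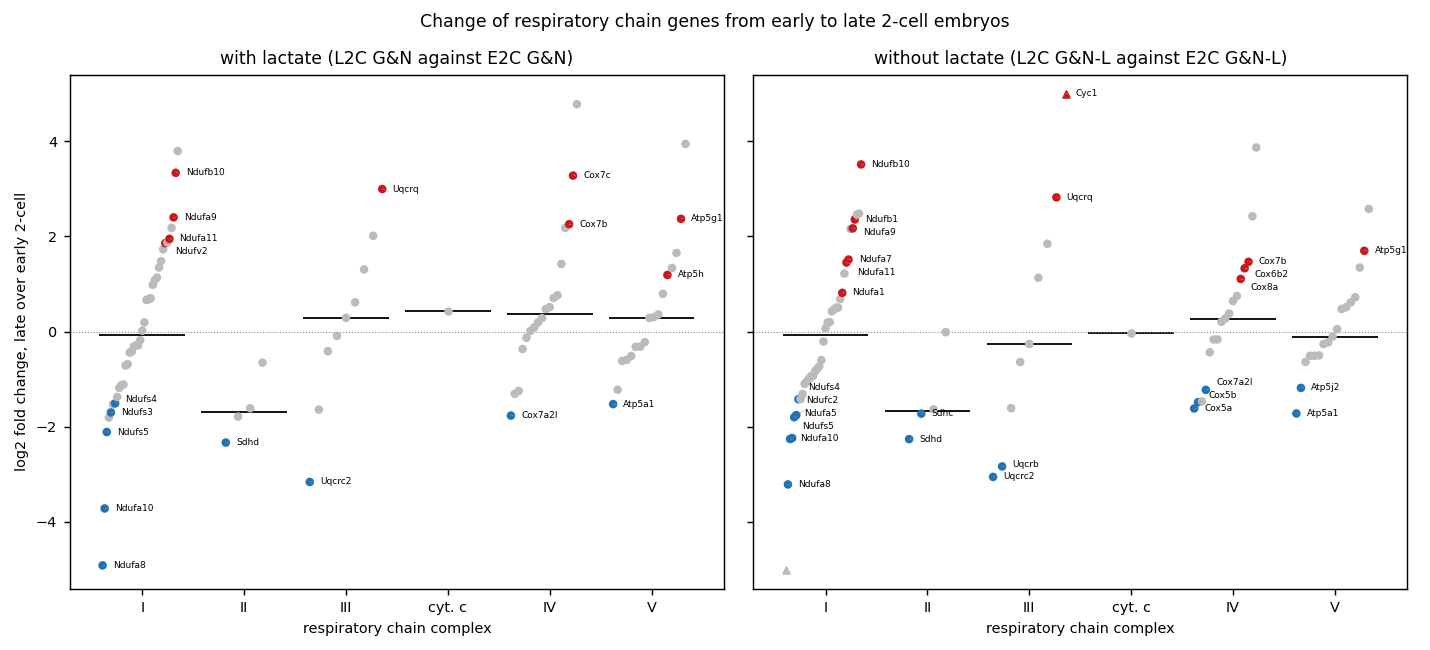
Log2 fold change from early to late 2-cell embryos for the genes tested, by complex and with 1 gene not drawn, for embryos with lactate on the left and without it on the right. Coloured points have an adjusted p under 0.05 (red rose, blue fell), black lines are medians, and triangles lie beyond 5; the 4 genes of complex II lie below 0, with Sdhb at -0.01 without lactate.

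In complex I the accessory subunits Ndufa8 and Ndufa10 fell most. Ndufa8, a subunit with paired cysteine motifs on the intermembrane space side, had 137 and 70.2 CPM in E2C G&N and 2.82 and 4.25 in L2C G&N. This gave a log2 fold change of -4.91 (SE 0.47, where SE is the standard error, edgeR adjusted p = 0.0072). Ndufa10 had 276 and 210.7 CPM in E2C G&N and 21.6 and 17.0 in L2C G&N (log2 fold change -3.72, SE 0.30, edgeR adjusted p = 0.0061). The early libraries lay far above the late ones for both genes, with no overlap. Of the core subunits of the matrix arm, Ndufv2 rose (log2 fold change 1.86) and Ndufs3 fell (-1.70). Ndufv1, which binds FMN and takes the electrons from NADH, was uneven, with 8.73 and 0 CPM in L2C G&N. Ndufs1 and Ndufs7, iron-sulfur core subunits, were low throughout, at 1.82 to 23.1 and 0.104 to 11.8 CPM over the 14 libraries. Ndufa9, Ndufa11 and Ndufb10 also rose and Ndufs4 and Ndufs5 fell. Ndufs3 and Ndufs5 have a near-identical copy elsewhere in the genome.

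Complex II, succinate dehydrogenase, was the complex in which all members had a negative log2 fold change. The sum over its 4 genes was 285 ± 157 CPM (SD, n = 2) in E2C G&N and 94.6 ± 13.2 (SD, n = 2) in L2C G&N. In G&N-L it was 308 ± 42.4 (SD, n = 2) in early and 112 ± 14.9 (SD, n = 2) in late embryos. The 4 early libraries held 174 to 396 CPM and the 10 late libraries 51.0 to 122, so that they did not overlap. The sums of complexes I, III, IV and V overlapped between the stages. When scaled to library totals, complex IV did not overlap, with at most 1807 CPM in early and at least 2119 in late libraries. Sdhd, a membrane anchor, fell from 56.5 and 30.2 to 7.83 and 9.90 CPM (log2 fold change -2.33, SE 0.43, edgeR adjusted p = 0.028). The flavoprotein gene Sdha (-1.61) and the other anchor gene Sdhc (-1.79) had an adjusted p of 0.061 and 0.059 (edgeR). Sdhb, the iron-sulfur subunit, had 37.5 and 22.1 CPM in E2C G&N and 10.3 and 29.0 in L2C G&N, which overlapped, and without lactate its log2 fold change was -0.01.

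**Figure D3:**
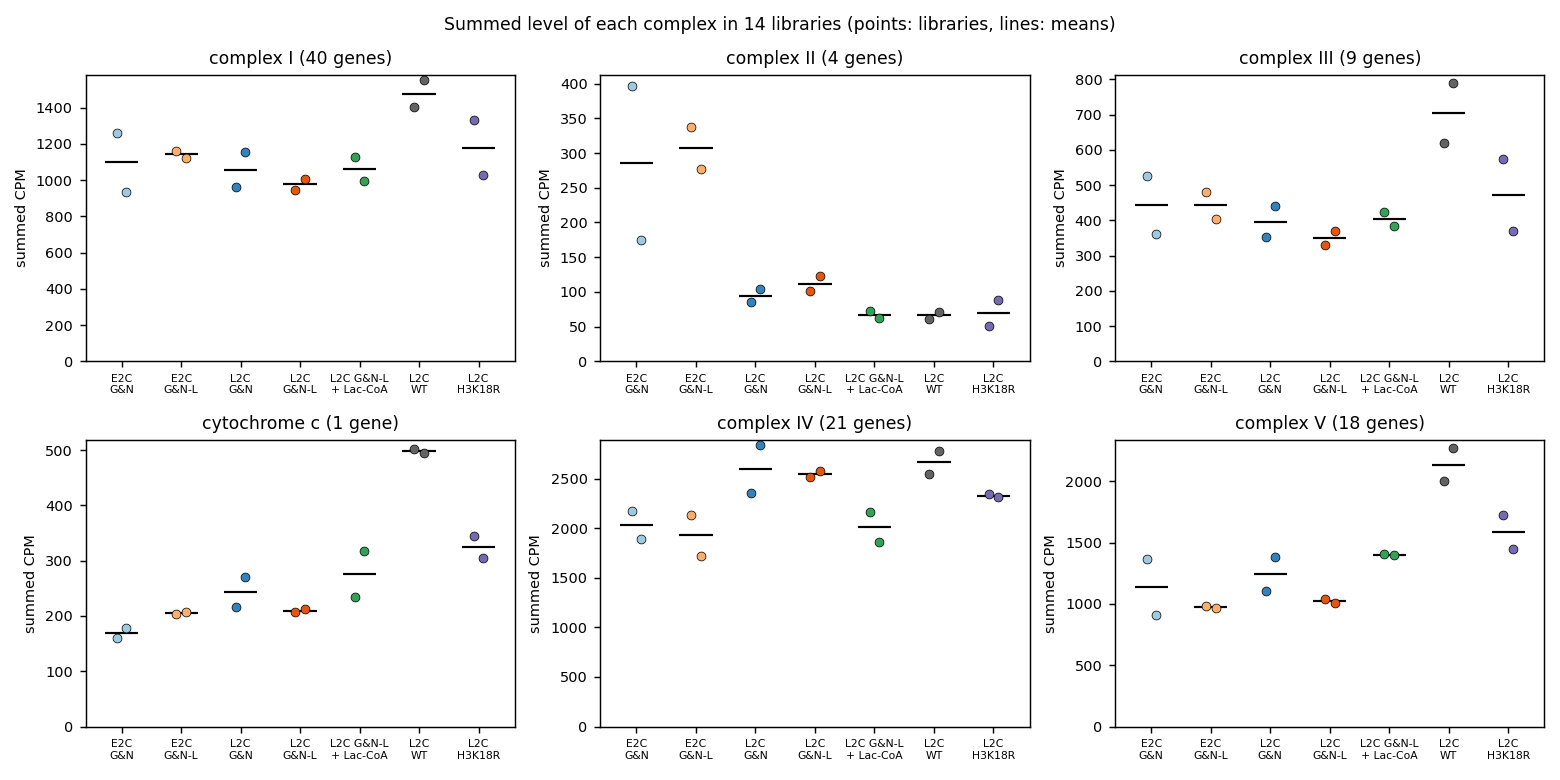
Summed CPM of the genes of each complex, and of cytochrome c, in the 14 libraries (points) with the mean of each condition (lines). Complex II lies between 174 and 396 in the 4 early libraries and between 51.0 and 122 in the 10 late ones, and complex V is highest in L2C WT.

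In complex III, the core protein gene Uqcrc2 fell from 249.6 and 117 to 17.8 and 24.3 CPM (log2 fold change -3.16, SE 0.41, edgeR adjusted p = 0.013). Uqcrq, a small subunit near the quinone site, rose from 25.2 and 15.2 to 143 and 190.5 CPM (log2 fold change 2.99, SE 0.34, edgeR adjusted p = 0.010). The fall of the one and the rise of the other were far larger than the differences between replicates. The electron carrying subunits were low at both stages, with Uqcrfs1, the Rieske protein, at 3.87 to 20.4 CPM in these 4 libraries and Cyc1, cytochrome c1, at 0.523 to 6.82. Exons of other genes overlap 29.7% of the exonic length of Uqcrc2, and the strand setting of the counting is not given in the sources used here.

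In complex IV, Cox7b and Cox7c rose. Cox7c went from 2.38 and 2.98 to 21.3 and 34.0 CPM (log2 fold change 3.28, SE 0.54, edgeR adjusted p = 0.022). Cox7b went from 25.4 and 25.6 to 97.4 and 160.0 CPM (log2 fold change 2.26, SE 0.36, edgeR adjusted p = 0.020). Cox7a2l, which joins complexes III and IV in supercomplexes, fell from 141 and 126 to 44.0 and 38.4 CPM (log2 fold change -1.77, SE 0.27, edgeR adjusted p = 0.018). Cox4i1, Cox5a and Cox5b, subunits that surround the catalytic core, did not pass the threshold with lactate, at a log2 fold change of 1.42 for Cox4i1, -1.25 for Cox5a and -0.37 for Cox5b. Cox7c has 6 copies in the genome, up to 100% identical, so its counts are uncertain. In complex V, the catalytic α subunit gene Atp5a1 fell (log2 fold change -1.52, adjusted p = 0.036, edgeR) and the rotor gene Atp5g1 rose (2.37, edgeR adjusted p = 0.014). Atp5h, of the peripheral stalk, rose as well (1.19, edgeR adjusted p = 0.049), just under the threshold. Atp5h also has 6 copies in the genome, up to 98.7% identical, so its counts are uncertain. Atp5b, the catalytic β subunit, had 425 and 207 CPM in E2C G&N and 138 and 140.3 in L2C G&N and did not pass (-1.22, adjusted p = 0.066, edgeR).

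Without lactate (L2C G&N-L against E2C G&N-L), 15 of 86 genes fell and 13 rose at the same threshold, against 5.87% and 5.97% of all 18604 genes. This comparison shares no library with the former. By the unadjusted criterion, 27.9% of the 86 members were lower and 26.7% higher. Among the 1307 genes within the interquartile ranges of the members' transcript length and level, 24.2% were lower and 26.4% higher. The members' shares were thus close to those of these genes, and no test of the shares was run. Of the genes that fell at the adjusted threshold, 8 did so in both comparisons, which is 88.9% of those with lactate and 53.3% of those without. Of the genes that rose, 7 did so in both, 70.0% and 53.8% of the lists. None had opposite calls. The same overlap was not counted over all genes, so these shares cannot be read as particular to the members. The shared genes that fell were Ndufa8, Ndufa10, Ndufs4, Ndufs5, Sdhd, Uqcrc2, Cox7a2l and Atp5a1, and Ndufa9, Ndufa11, Ndufb10, Uqcrq, Cox7b and Atp5g1 were among those that rose. Among the others, Cox6b2 rose from 305 and 230.3 to 765 and 630.0 CPM (log2 fold change 1.33, SE 0.19, edgeR adjusted p = 0.019). Cox8a rose and Cox5a, Cox5b, Sdhc and Uqcrb fell. Cyc1 had 2 and 0 counts in E2C G&N-L and 181 and 193 in L2C G&N-L.

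The directions of the stage calls held in every alternative, while their number did not. Without L2C G&N replicate 1, 1 gene fell and 0 rose with lactate, without replicate 2 they were 2 and 0, and without E2C G&N replicate 1, 4 fell. In the lactate-free comparison 2 fell and 1 rose without L2C G&N-L replicate 1, 8 and 3 without replicate 2, and 7 and 7 or 6 and 4 without E2C G&N-L replicate 1 or 2. DESeq2 called 15 lower and 25 higher with lactate, and 22 and 23 without, where it called 30.5% and 27.9% of all genes in either direction. When libraries were scaled to their totals in place of TMM, the median of all genes moved up by 0.38 with and 0.37 without lactate. The members' median minus that of all genes was 0.11 by TMM and 0.07 by totals with lactate, and -0.21 and -0.22 without. The 2-cell markers were higher in every late library, as given above, while the maternal markers summed to 9606 and 7807 CPM of the library total in E2C G&N, 6364 and 6230.1 in L2C G&N, 7161 and 7341 in E2C G&N-L and 6323 and 7968 in L2C G&N-L, and their part in the stage changes was not tested.

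The upstream sequences of 4 members are given because these genes carry contrasts of this account: a pair of unequal level (Cox6b1 and Cox6b2), a gene lower without lactate at the late stage (Cox7c) and a gene that fell at both lactate conditions (Ndufa8). They are from RefSeq on GRCm38.p6, a different build from the mm39 of the counts, and hold the 200 bases before the start on the strand of the gene. All 4 genes lie on the minus strand. Cox6b1 is at chr7:30626115-30626314, Cox6b2 at chr7:4753095-4753294, Cox7c at chr13:86046796-86046995 and Ndufa8 at chr2:36049339-36049538. Capitals mark matches to 4 motifs, searched on both strands: GCGCATGCG for NRF1, CCGGAAG for ETS factors, AAGATGGC for YY1 and TATAAA for the TATA box.
Cox6b1: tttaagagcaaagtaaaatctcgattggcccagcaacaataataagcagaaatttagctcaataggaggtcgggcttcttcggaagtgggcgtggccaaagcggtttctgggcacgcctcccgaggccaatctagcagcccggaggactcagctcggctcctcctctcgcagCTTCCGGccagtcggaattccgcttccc
Cox6b2: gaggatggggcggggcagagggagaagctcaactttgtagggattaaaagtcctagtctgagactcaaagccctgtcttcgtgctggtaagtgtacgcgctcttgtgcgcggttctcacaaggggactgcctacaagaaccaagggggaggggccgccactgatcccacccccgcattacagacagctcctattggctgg
Cox7c: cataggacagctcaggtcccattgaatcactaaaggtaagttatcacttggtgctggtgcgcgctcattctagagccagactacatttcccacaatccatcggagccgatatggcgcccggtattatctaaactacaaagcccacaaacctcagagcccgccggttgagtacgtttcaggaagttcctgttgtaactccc
Ndufa8: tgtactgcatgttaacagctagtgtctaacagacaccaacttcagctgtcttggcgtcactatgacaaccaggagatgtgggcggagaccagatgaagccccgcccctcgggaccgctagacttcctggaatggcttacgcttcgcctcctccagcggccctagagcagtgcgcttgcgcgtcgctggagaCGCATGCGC
Cox6b1 holds an ETS match and Ndufa8 an NRF1 match that ends at the start, while no match was found in Cox6b2 and Cox7c. The windows of 300 bases around the start were given for 70 of the 93 genes. An NRF1 match was in 9 of the 70 (12.9%) and in 2.41% of 17491 protein-coding genes, an ETS match in 16 (22.9%) and 11.9%, and a YY1 match in 9 (12.9%) and 3.22%. A TATA match was in 8 (11.4%) and 13.3%. At least 1 of the NRF1, ETS and YY1 motifs was in 5 of the 12 windows of genes that fell from the early to the late stage with or without lactate, in 4 of the 13 of genes that rose in either comparison and in 21 of the 45 others. Of the YY1 matches 7 were in complex I genes. A match is only these letters in this window, and no test of the shares was run.

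In late 2-cell embryos, removal of lactate (L2C G&N-L against L2C G&N) gave 10 lower and 4 higher members at a criterion without adjustment, with shares not far from those of all genes. After adjustment 0 of 87 genes passed 0.05 by edgeR, while DESeq2 gave 3, Cox7c and Uqcrc1 lower and Ndufa8 higher, and 4.79% of all genes. The criterion for calls in this comparison, and in those that follow unless stated, was an edgeR p under 0.05 before adjustment and a change beyond 0.5 on the log2 scale. It was met by 11.5% of the members in the lower and 4.60% in the higher direction, and by 7.63% and 4.23% of all 19481 genes. Among the 1231 genes within the interquartile ranges of the members' transcript length and level, 13.4% were lower and 7.31% higher. The median log2 fold change was -0.16 for the 87 genes and -0.02 for all genes. The lower genes were spread over complexes I (5 genes), III (1), IV (2) and V (2), and the higher genes were Ndufa7, Ndufa8, Ndufa10 and Ndufb1 of complex I. Of these, Ndufb1 lost its call without any 1 of the 4 libraries, and Ndufa7 in 3 of these 4 settings. Without L2C G&N replicate 2, 2 genes were lower, and without either L2C G&N-L library 5 were. The higher genes were 2 without L2C G&N replicate 1, and 2 or 1 without L2C G&N-L replicate 1 or 2. Complex II had no gene past this criterion. Markers of the 2-cell embryo summed to 2898 and 2684 CPM of the library total in L2C G&N, 3191 and 3642 in L2C G&N-L and 4932 and 5791 after Lac-CoA, and their part in the late comparisons was not tested.

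Cox7c, a small subunit of cytochrome oxidase, had 21.3 and 34.0 CPM in L2C G&N, 6.61 and 6.29 in L2C G&N-L and 26.4 and 34.5 in L2C G&N-L + Lac-CoA. The lactate-free libraries lay below all 4 others. The log2 fold change without lactate was -2.04 (SE 0.42, edgeR adjusted p = 0.31) and stayed from -2.31 to -1.64 without 1 library at a time. Uqcrc1, the first core protein of complex III, had 173 and 234 counts in L2C G&N, 14 and 6 in L2C G&N-L and 68 and 252 after Lac-CoA. Its log2 fold change without lactate was -4.21 (SE 1.06, edgeR adjusted p = 0.32). Atp5g3 had 51.1 and 72.7 CPM with lactate, 29.6 and 28.4 without and 53.2 and 59.7 after Lac-CoA. Cox7b had 97.4 and 160.0, 61.2 and 76.3, and 154 and 203 CPM in the same order. In these 4 genes, and in the other genes called lower, the lactate-free libraries were the lowest of the late libraries. All were called on these lactate-free libraries, so their low place there is not a separate result. Of the complex I genes that were lower, Ndufa11 had 69.9 and 84.0 CPM with and 37.9 and 44.9 without lactate. Ndufb11 had 52.3 and 56.8 with and 23.4 and 30.9 without, and 67.8% of its exonic length is shared with Rbm10 on the other strand. Cox7b has 3 copies in the genome, and its call was lost without L2C G&N replicate 2 (log2 fold change -0.42) and without L2C G&N-L replicate 1 (-0.72) or replicate 2. Without L2C G&N replicate 2 the calls of Atp5g3, Ndufa11 and Ndufb11 were lost too, while those of Cox7c and Uqcrc1 held without any 1 library.

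Ndufa8 went the other way, with 2.82 and 4.25 CPM in L2C G&N and 14.5 and 11.9 in L2C G&N-L (log2 fold change 1.96, SE 0.53, edgeR adjusted p = 0.33). Ndufa10 had 21.6 and 17.0 CPM with and 29.4 and 57.9 without lactate (log2 fold change 1.22). Both fell between the stages, in comparisons that share these late libraries, and their lactate-free late libraries lay between the early and the lactate-fed late libraries. After Lac-CoA, Ndufa8 had 11.9 and 5.14 CPM and Ndufa10 46.1 and 4.96, so that the 2 libraries disagreed.

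**Figure D4:**
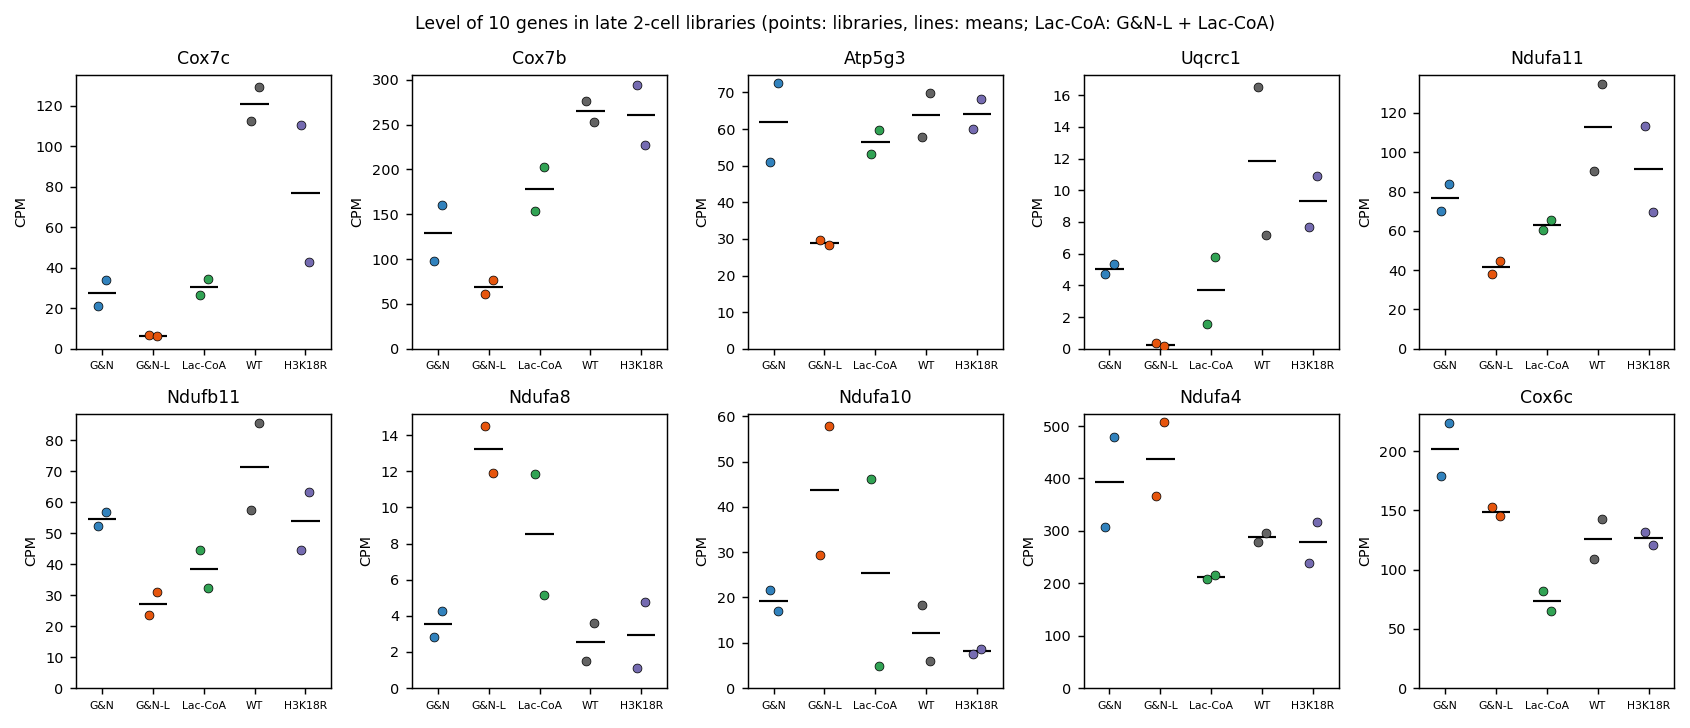
CPM of 10 genes in the late 2-cell libraries, with points for libraries and lines for means. Cox7c, Cox7b, Atp5g3, Uqcrc1, Ndufa11 and Ndufb11 are lowest in both G&N-L libraries, Ndufa8 is highest there, and Ndufa4 and Cox6c are lowest in both Lac-CoA libraries.

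In early 2-cell embryos, lactate removal (E2C G&N-L against E2C G&N) gave few calls. After adjustment 0 of 88 genes passed 0.05, by edgeR or by DESeq2, which called 0.219% of all genes. At the unadjusted criterion 1 was lower and 1 higher, against 2.69% and 1.82% of all 17343 genes. Cyc1 was the lower gene, with 140 and 23 counts in E2C G&N and 2 and 0 in E2C G&N-L. Ndufa1, a membrane arm subunit of complex I, was the higher gene, with 54.4 and 44.5 CPM with and 69.7 and 64.5 without lactate (log2 fold change 0.57). Without E2C G&N replicate 1, 0 were lower and 8 higher, without replicate 2, 3 and 3, and without E2C G&N-L replicate 1, 4 and 0. Whether the change without lactate differed between the stages was tested as an interaction in 8 libraries. Early and late embryos also differed in the length of treatment, which cannot be told apart from stage in this test. Here too 0 of 89 genes passed after adjustment by either tool, while DESeq2 called 1.10% of all genes. At the unadjusted criterion 5 were lower and 4 higher, against 3.98% and 3.57% of all 22287 genes. Ndufa8 (1.65), Ndufa10 (1.41), Cyc1 and Cox6b2 (0.77) had a positive interaction on the log2 scale. Ndufb11, Cox5b, Atp5j2, Ndufv2 and Uqcrb had a negative interaction. The lower count ran from 0 without E2C G&N replicate 2 to 9 without replicate 1.

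Injection of lactyl-CoA into lactate-free embryos (L2C G&N-L + Lac-CoA against L2C G&N-L) was compared next. No mock injection is described for the L2C G&N-L or L2C G&N embryos in the sources used here. The injection and lactyl-CoA itself thus cannot be told apart in comparisons with either group. After adjustment edgeR gave 0 of 88 genes, and DESeq2 2 lower and 4 higher, with 6.20% of all genes. At the unadjusted criterion 6 were lower and 10 higher, against 6.29% and 6.89% of all 19610 genes. The median log2 fold change was -0.15 for the members and -0.01 for all genes. The higher genes with the smallest p were Atp5g1, Cox7c and Cox7b. Atp5g1 had 229.8 and 225.5 CPM in L2C G&N-L and 477 and 462 after Lac-CoA (log2 fold change 0.99, SE 0.16, edgeR adjusted p = 0.29). The log2 fold change was 2.19 for Cox7c and 1.33 for Cox7b. Ndufs8, a core iron-sulfur subunit of complex I, had 26.9 and 32.5 CPM without and 58.8 and 55.9 with Lac-CoA. Ndufb11b, a copy of Ndufb11 that is called among the higher genes, had 0 counts in both lactate-free libraries and 103 and 41 after Lac-CoA. It also had 69 and 0 counts in L2C G&N, so its 2 libraries disagreed there. Without L2C G&N-L replicate 1 or 2 the lower genes were 2 or 3 and the higher ones 5 or 6, and without Lac-CoA replicate 1 or 2 the higher ones were 6 or 5. Atp5g1, Cox7c, Cox7b, Ndufa4 and Cox6c passed in every alternative.

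The lower genes after Lac-CoA were led by 2 abundant subunits of complex IV. Ndufa4, once assigned to complex I, had 367 and 508 CPM in L2C G&N-L and 208 and 215 after Lac-CoA (log2 fold change -1.10, SE 0.21, edgeR adjusted p = 0.29). Cox6c had 153 and 145 CPM and then 82.1 and 64.8 (log2 fold change -1.07, SE 0.22, edgeR adjusted p = 0.29). These Lac-CoA levels were also below those of the lactate-fed embryos, where Ndufa4 had 308 and 479 CPM and Cox6c 179 and 224. In complex II all 4 genes had a negative log2 fold change, and Sdhc passed the unadjusted criterion, with 50.5 and 46.7 CPM without and 27.1 and 24.6 after Lac-CoA.

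**Figure D5:**
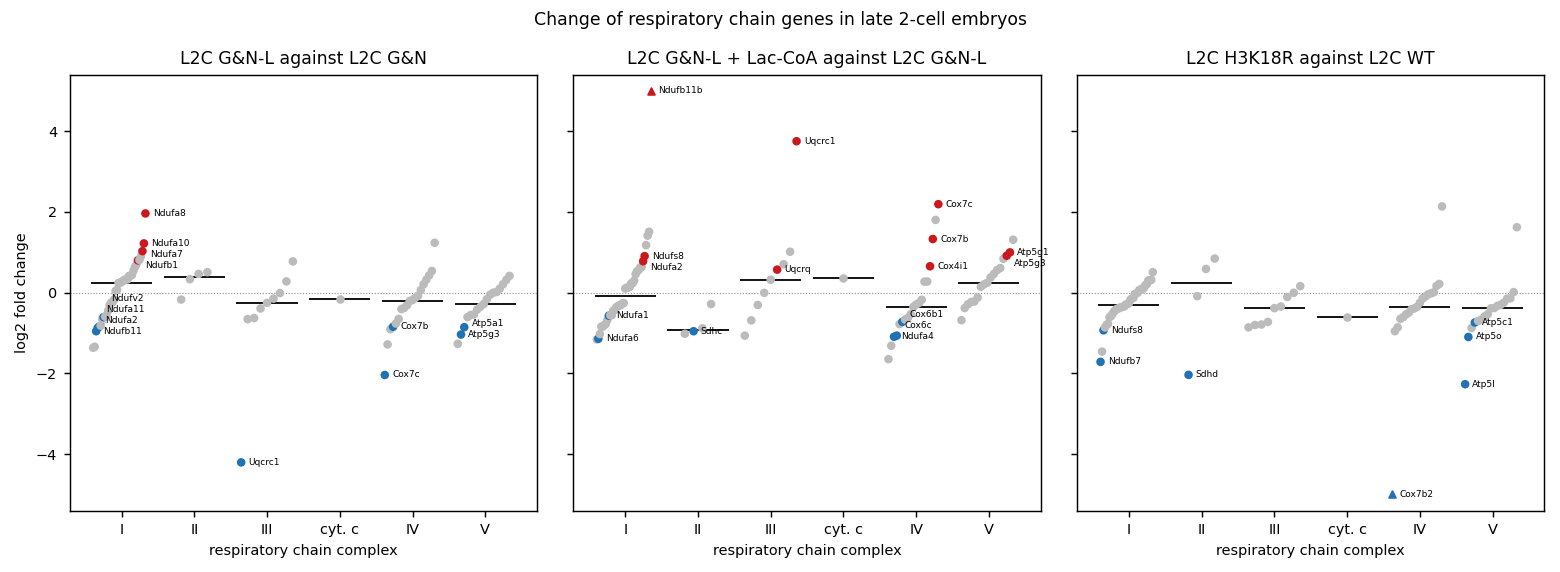
Log2 fold changes of the genes tested in 3 comparisons of late 2-cell embryos, by complex, with 1 gene not drawn. Coloured points passed the unadjusted criterion (red higher, blue lower) and none an adjusted p under 0.05, black lines are medians, and triangles lie beyond 5; in H3K18R against WT the 7 called genes are all lower.

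Set directly against lactate-fed embryos (L2C G&N-L + Lac-CoA against L2C G&N), 0 of 88 genes passed after adjustment by edgeR and 1, Cox6c, by DESeq2, which called 2.43% of all genes. At the unadjusted criterion 2 were lower, Cox6c and Ndufa4, and 2 higher, Ndufa7 and Ndufb1, against 4.10% and 4.41% of all 19613 genes. Cox6c had a log2 fold change of -1.36 (SE 0.25, edgeR adjusted p = 0.50). Ndufb1 had 30.7 and 35.1 CPM in L2C G&N, 61.5 and 48.9 in L2C G&N-L and 67.3 and 57.5 after Lac-CoA. Ndufa7 had 15.4 and 27.7, 38.3 and 45.8, and 40.7 and 55.1 CPM in the same order. In both genes the lactate-free libraries, with or without Lac-CoA, lay above the lactate-fed ones. Of the exonic length of Ndufb1, 41.8% is shared with Cpsf2 on the other strand, so its counts are uncertain. Without L2C G&N replicate 2 the counts were 1 lower and 5 higher, and without Lac-CoA replicate 1, 1 was higher. The 3 comparisons of these groups share libraries with each other, so their values are set side by side and are not independent.

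Embryos with mutant H3 (L2C H3K18R against L2C WT) had mostly lower values of these genes. Of 87 genes 68 had a log2 fold change below 0, where 8605 of 17704 genes had in all, and the median was -0.35 against 0.03. After adjustment 0 passed, by edgeR or by DESeq2, which called 0.678% of all genes. At the unadjusted criterion 7 were lower and 0 higher, against 2.67% and 3.77% of all genes. The 7 were Ndufb7 and Ndufs8 of complex I, Sdhd of complex II, Cox7b2 of complex IV, and Atp5c1, Atp5l and Atp5o of complex V. Ndufb7 had 38.5 and 31.7 CPM in WT and 9.16 and 12.1 in H3K18R (log2 fold change -1.72, SE 0.41, edgeR adjusted p = 0.73). Atp5c1, the γ subunit at the centre of the rotor, had 199 and 210.2 CPM in WT and 121 and 123 in H3K18R (log2 fold change -0.74, SE 0.25, edgeR adjusted p = 0.73). The call of Ndufb7 was lost without WT replicate 1 and that of Atp5c1 without either WT library. Both mutant libraries lay below both WT libraries in these 2 genes. Sdhd had 12.96 and 19.8 CPM in WT and 2.30 and 5.66 in H3K18R. Cox7b2 had 45 and 118 counts in WT and 0 in both H3K18R libraries. Atp5l rested on 1 library, with 11.96 and 76.8 CPM in WT and 7.91 and 10.4 in H3K18R. Without WT replicate 2 its log2 fold change was -0.39 and 1 gene was called lower, without WT replicate 1 there were 3, and without H3K18R replicate 1 there were 19.

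Most sums by complex were lower in H3K18R as well. Complex V summed to 2136 ± 191 CPM (SD, n = 2) in L2C WT and 1586 ± 194 (SD, n = 2) in L2C H3K18R. Complex III summed to 705 ± 121 (SD, n = 2) and 473 ± 145 (SD, n = 2). Cycs had 501 and 494 CPM in WT and 345 and 304 in H3K18R (log2 fold change -0.61, edgeR adjusted p = 0.79). The sums of complexes I, III, IV and V and the level of Cycs did not overlap between the 2 groups, while those of complex II did, and no test was run on sums. The means of H3K18R for complexes I, III and V and Cycs lay above those of L2C G&N, G&N-L and Lac-CoA embryos. For complex V these were 1245, 1024 and 1401 CPM. For complex IV, H3K18R with 2330 lay below L2C G&N with 2598 and G&N-L with 2544. In single libraries, complexes I and III of H3K18R overlapped with L2C G&N and Lac-CoA, and Cycs with Lac-CoA alone. Complex I had 1334 and 1026 CPM in H3K18R and 961 and 1155 in L2C G&N. Complex V overlapped with none of these groups. The groups also differ in the histone injection and in the GNE140 and NMN named for them, which cannot be told apart. Maternal markers summed to 2714 and 4705 CPM of the library total in H3K18R and 2399 and 2428 in WT. Markers of the 2-cell embryo summed to 1917 and 2214 in H3K18R and 1673 and 1193 in WT. The part of either set of markers in these differences was not tested.

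For WT embryos the labels name the histone injection and no GNE140 or NMN. Of 88 genes 59 had a higher level in WT embryos than in L2C G&N, where 8680 of 18986 genes did in all. After adjustment 0 were lower and 3 higher by edgeR at 0.05, against 2.68% and 1.94% of all 18986 genes. At the unadjusted criterion there were 7 lower (7.95%) and 25 higher (28.4%) members, beside 2961 and 2347 of all 18986 genes. Among the 1368 genes within the interquartile ranges of the members' transcript length and level, 23.2% were lower and 24.1% higher. DESeq2 gave 3 and 21 members after adjustment and called 21.9% of all genes. This comparison shares its WT libraries with the H3K18R comparison and its G&N libraries with those on lactate. The median log2 fold change was 0.44 for the members and -0.16 for all genes. Cox7c had 113 and 129 CPM in WT and 21.3 and 34.0 in G&N (log2 fold change 2.09, SE 0.30, edgeR adjusted p = 0.041). Atp5md, a small subunit bound to the membrane part of ATP synthase, had 147 and 189 CPM against 48.4 and 57.4 (log2 fold change 1.63, SE 0.24, edgeR adjusted p = 0.041). Atp5j, coupling factor 6 of the peripheral stalk, had 96.3 and 103 CPM against 20.7 and 33.2 (log2 fold change 1.85, SE 0.30, edgeR adjusted p = 0.044). Atp5g2 had a log2 fold change of -3.14 (edgeR adjusted p = 0.054) and Cox6a2 one of -3.36 (edgeR adjusted p = 0.11), and neither passed. Markers of the 2-cell embryo summed to 1673 and 1193 CPM of the library total in WT and 2898 and 2684 in G&N. Maternal markers summed to 2399 and 2428 CPM of the library total in WT and 6364 and 6230.1 in G&N, and mitochondrially encoded genes took 9.10% and 9.47% of counts in WT and 5.28% and 5.64% in G&N. Their part in these differences was not tested, and without either WT library or without L2C G&N replicate 1 no gene was called higher. Other genes overlap 29.6% of the exonic length of Atp5j, among them Gabpa on the opposite strand, and 44.9% of that of Atp5md.

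The 13 mitochondrially encoded subunits of the same complexes were counted from a fixed list. In L2C G&N-L against L2C G&N, 5 of 13 were lower at the unadjusted criterion and 0 higher, beside 7.63% and 4.23% of all genes, and their median was -0.53 on the log2 scale. The 5 were mt-Nd2, mt-Nd4, mt-Nd5, mt-Nd6 and mt-Cytb, which are 4 of the 7 complex I subunits on this list and cytochrome b. mt-Nd6, which lies on the opposite strand to the others, had the largest difference of these (log2 fold change -1.17, SE 0.21, edgeR adjusted p = 0.31). After Lac-CoA against lactate-free embryos 0 of 13 passed, where 6.29% of all genes were lower and 6.89% higher, with a median of -0.05. Against lactate-fed embryos 5 of 13 were lower and 0 higher, beside 4.10% and 4.41% of all genes. In H3K18R against WT 0 of 13 passed, beside 2.67% lower and 3.77% higher of all genes, and their median of 0.32 had the opposite sign to the -0.35 of the nuclear genes. From early to late embryos with lactate, 1 of 13 rose at an adjusted p under 0.05, mt-Nd6 (1.30, edgeR adjusted p = 0.039), and 8.18% of all genes did.

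Gabpa overlaps Atp5j on the opposite strand, so reads of the 2 genes may not be told apart. Of 11 genes that regulate transcription of the respiratory chain, 9 were tested. Gabpa, the DNA-binding subunit of the ETS factor GABP, had 1.08 and 2.69 CPM in E2C G&N and 278 and 481 in L2C G&N (log2 fold change 7.54, SE 0.72, edgeR adjusted p = 0.0073). Yy1, Pprc1 and Tfb2m rose as well at an adjusted p under 0.05, and 0 fell, beside 8.18% and 5.47% of all genes. Without lactate Gabpa had 107 and 106.7 CPM at the late stage, after Lac-CoA 288 and 322, in WT 869 and 842 and in H3K18R 848 and 381. Both lactate-free libraries lay below the 8 other late libraries. In L2C G&N-L against L2C G&N, 4 of 9 regulators were lower at the unadjusted criterion and 0 higher (all genes 7.63% and 4.23%), namely Gabpa (-1.77, edgeR adjusted p = 0.31), Yy1 (-1.06), Pprc1 (-1.36) and Tfb2m (-0.86). Nrf1 had 23.0 and 27.8 CPM with and 24.1 and 26.1 without lactate. Of 55 assembly factors tested in that comparison 5 were lower and 5 higher, beside the same 7.63% and 4.23% of all genes. With lactate, 9 assembly factors fell and 5 rose from the early to the late stage at an adjusted p under 0.05, beside 5.47% and 8.18% of all genes, among them Uqcc3 for complex III, which rose, and Surf1 for complex IV, which fell.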

How the data were processed

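RNA was sequenced from 14 libraries of 5 embryos in 7 groups. The authors deposited whole-number counts per gene, made with featureCounts from HISAT2 alignments to mm39 after trimming by Trim Galore; versions, strand setting and treatment of reads with several matches are not given in the sources used here. The methods state 3 replicates per group, and 2 per group were analysed here. Columns written K18A were taken as the samples titled H3K18R. No column belonged to a sample outside the series.

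Each comparison used its own 4 libraries (the interaction 8) with edgeR 4.0.16 in R 4.3.3: the default filter on low counts, TMM and the two-sided quasi-likelihood test over all genes, with Benjamini-Hochberg adjustment. A call was an adjusted p under 0.05 for the stage comparisons and WT against G&N, and otherwise p under 0.05 before adjustment with a log2 fold change beyond 0.5. With 2 libraries in each group the smallest p of an exact permutation test is 0.333, so none was run. Alternatives were DESeq2 1.42.0 and its size factors, library totals, other filters, all 14 libraries together, a replicate block and leaving out each library. The steps were tested on simulated data. Genes were matched to GENCODE M39, and copies of transcripts were sought with minimap2 2.31.

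The members and lists were chosen with earlier results of these data known. Named genes were core subunits by role, isoform pairs, the up to 4 members with the smallest p in each direction of a comparison, and up to 12 members with an adjusted p under 0.05. A few others are given as members of a call list. Promoter windows came from a RefSeq table. The values of 1 member are not reported here.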

Additional observations from a re-analysis of the deposited data

How the results depend on the processing

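No named gene that was called changed direction in any alternative, while counts of calls moved with 2 libraries a group. The cause was not tested. With DESeq2, 15 members fell and 25 rose between stages with lactate, 23 rose without lactate, 3 were lower and 21 higher in WT against G&N, 2 were lower after early removal and 4 lower after Lac-CoA against lactate-fed embryos. With library totals 5 fell with lactate, 6 were higher in WT and 0 higher after early removal, and the members' median was 0.53 with lactate, 0.30 without and -0.043 for Lac-CoA against lactate-free embryos. Without a filter on low counts 15 fell and 19 rose with lactate, 2 were lower and 19 higher in WT, and 3 were lower after early removal. With at least 10 counts in every library 14 fell and 20 rose with lactate, 20 rose without, 2 were lower and 18 higher in WT, 4 were lower after Lac-CoA against lactate-fed embryos and 0 higher after early removal. With all 14 libraries together 20 rose with lactate, 1 was lower and 8 higher in WT, 2 were higher after late removal, 2 lower and 0 higher after early removal, and 4 lower and 2 higher in H3K18R. In that setting Lac-CoA against lactate-fed embryos had 4 lower and 1 higher with a median of -0.079, and against lactate-free embryos the median was -0.0753.

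Replicate numbers are not stated to pair libraries, and deviations of same-numbered libraries had correlations of -0.052 to 0.0063 over 15563 genes. With the replicate number as a block, 2 members were higher after late removal, 0 lower and 0 higher after early removal, 4 lower in H3K18R, 5 fell with lactate and 8 rose without, and the median for Lac-CoA against lactate-free embryos was 0.029.

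Leaving out 1 library at a time gave these ranges of lower calls, higher calls and medians. Late removal had 2 to 11, 1 to 5 and -0.18 to 0.00036. Early removal had 0 to 4, 0 to 8 and 0.05 to 0.29. H3K18R had 1 to 19, 0 to 1 and -0.48 to -0.29. Lac-CoA had 2 to 8, 5 to 6 and -0.13 to 0.033 against lactate-free and 1 to 3, 1 to 5 and -0.17 to -0.0066 against lactate-fed embryos. The stage comparison had 1 to 10, 0 to 14 and -0.10 to 0.35 with lactate and 2 to 8, 1 to 7 and -0.12 to 0.01 without. WT against G&N had 0 to 4 higher and medians of 0.30 to 0.66, and the interaction 0 to 9, 3 to 6 and -0.37 to -0.00066. Such a comparison has a group of 1 library, assumed to vary like the other group. The log2 fold changes in H3K18R against WT of 2 genes not called there ran from -0.087 to 1.40 for Sdha and from -0.0026 to 0.995 for Sdhc, the negative values being those without H3K18R replicate 2.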
